A study of Homo sapiens with 6 samples.

Results

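The exons described here are cassette exons of SW480 cells whose length is not a multiple of 3 nucleotides (nt) and whose mean inclusion level was lower in group 1 than in group 2 of a deposited table of splicing records. They were chosen by that rule alone: the record is a skipped-exon (SE) record, the difference in mean level is below 0, and the exon length leaves a remainder when divided by 3. The rule kept 477 of 1263 SE records, or 37.8% (95% Wilson interval, 35.1 to 40.5), on 464 of 1208 distinct exons and under 415 of 1026 gene symbols. The levels that chose the records are given below as a description without a test. The table names its groups 1 and 2 only, and neither it nor the labels hold a key to the hairpins. Groups were taken from labels alone, so the names group 1 and group 2 are kept.

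SW480 is a cell line from a human colon adenocarcinoma. Cells labelled WT carried a nonsilencing control hairpin (shCtrl) and cells labelled RBM39 knockdown carried a hairpin against RBM39 (shRBM39), with 3 libraries in each group. According to the study's methods the hairpins were delivered by lentivirus and stable clonal lines were selected with puromycin, so the vector and the selection are shared by both groups. All cells grew in medium with fetal bovine serum, and total RNA was made into stranded mRNA libraries with unique identifiers. The study describes the 3 libraries of a group as independent replicate experiments, and neither it nor the labels say whether each came from its own infection or clone, so p-values measure the spread between these libraries.

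A cassette exon is either joined into the mature mRNA or left out together with its flanking introns. When the length of a coding cassette exon is not a multiple of 3, skipping it shifts the reading frame, and ribosomes usually meet a stop codon soon after the new join. A stop codon well upstream of the last exon-exon junction is the usual mark of a substrate for nonsense-mediated decay, which removes such mRNAs in the cytoplasm. RBM39 is an RNA-binding protein related to the splicing factor U2AF65, takes part in the choice of splice sites, and is the target of sulfonamides such as indisulam that lead to its degradation.

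The 6 exons below had the largest differences among records whose groups do not overlap and whose libraries each hold 20 event reads or more, and they are shown because the description of the levels begins with them. Sequences are from GRCh38, 5′ to 3′ on the strand of the gene, with the exon in capitals and 30 bases of each flanking intron in lower case. TEX30 lies at chr13:102767273-102767478 on the minus strand, FRG1HP at chr9:40993253-40993434 on the plus strand, DERA at chr12:15958188-15958335 on the plus strand, MRPL52 at chr14:22830964-22831037 on the plus strand, GOLGA2P5 at chr12:100168452-100168633 on the minus strand and CEACAM1 at chr19:42511576-42511628 on the minus strand.
TEX30: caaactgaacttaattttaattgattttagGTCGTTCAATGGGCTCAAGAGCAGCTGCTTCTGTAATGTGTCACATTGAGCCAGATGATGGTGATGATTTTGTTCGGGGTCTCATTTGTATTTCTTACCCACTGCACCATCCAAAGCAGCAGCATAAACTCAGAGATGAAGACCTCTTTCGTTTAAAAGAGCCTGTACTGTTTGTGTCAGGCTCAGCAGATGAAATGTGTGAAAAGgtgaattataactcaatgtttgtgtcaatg
FRG1HP: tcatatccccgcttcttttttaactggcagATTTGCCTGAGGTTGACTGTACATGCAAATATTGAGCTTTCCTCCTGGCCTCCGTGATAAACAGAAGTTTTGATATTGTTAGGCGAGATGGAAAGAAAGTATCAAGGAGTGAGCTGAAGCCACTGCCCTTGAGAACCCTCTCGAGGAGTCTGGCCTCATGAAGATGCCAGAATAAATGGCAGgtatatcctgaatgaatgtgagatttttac
DERA: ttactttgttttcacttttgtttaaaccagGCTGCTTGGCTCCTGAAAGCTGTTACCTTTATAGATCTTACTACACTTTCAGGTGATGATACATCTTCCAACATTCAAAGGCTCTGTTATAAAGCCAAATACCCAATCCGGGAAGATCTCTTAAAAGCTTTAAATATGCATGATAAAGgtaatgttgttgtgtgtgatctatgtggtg
MRPL52: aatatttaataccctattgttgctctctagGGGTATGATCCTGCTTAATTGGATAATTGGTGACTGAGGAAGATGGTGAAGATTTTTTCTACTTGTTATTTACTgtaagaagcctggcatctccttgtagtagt
GOLGA2P5: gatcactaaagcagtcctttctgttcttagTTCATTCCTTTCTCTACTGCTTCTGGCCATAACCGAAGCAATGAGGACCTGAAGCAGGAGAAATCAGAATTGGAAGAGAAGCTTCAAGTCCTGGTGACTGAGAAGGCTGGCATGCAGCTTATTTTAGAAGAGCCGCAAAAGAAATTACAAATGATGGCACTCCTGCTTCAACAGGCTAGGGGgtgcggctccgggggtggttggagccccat
CEACAM1: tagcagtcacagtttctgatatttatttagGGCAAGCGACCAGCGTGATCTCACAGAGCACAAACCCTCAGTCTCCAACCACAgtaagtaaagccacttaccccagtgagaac

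Skipping was then followed into the protein by joining the neighbouring exons of the GENCODE v44 canonical transcript. The runs below start 8 codons before the join and end with the new stop codon in capitals. They cover 5 of the 12 exons named first, each with the named exon alone left out. In ENKD1 the record joins past exon 3 and the exon between it and exon 5 as well. The ENKD1 run is therefore not the skipped form behind its levels.
TEX30: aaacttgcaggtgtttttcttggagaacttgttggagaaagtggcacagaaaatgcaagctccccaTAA
DERA: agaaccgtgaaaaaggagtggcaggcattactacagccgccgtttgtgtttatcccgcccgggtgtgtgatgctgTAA
CEACAM1: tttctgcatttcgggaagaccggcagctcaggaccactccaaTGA
ELOVL1: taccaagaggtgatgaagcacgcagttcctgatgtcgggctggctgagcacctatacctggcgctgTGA
ENKD1: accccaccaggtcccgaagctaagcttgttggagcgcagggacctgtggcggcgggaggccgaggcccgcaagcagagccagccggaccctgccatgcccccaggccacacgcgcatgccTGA
The new stop stood 13 codons after the join in TEX30, 17 in DERA, 5 in CEACAM1, 13 in ELOVL1 and 32 in ENKD1. In CEACAM1, a cell adhesion molecule of the carcinoembryonic antigen family, this exon is known to separate a long cytoplasmic tail from a short one. Joined without it, the reading frame kept 458 of 526 codons and stopped 13 nt before the last junction. In DERA, which breaks down deoxyribose phosphate, the shifted frame kept 43 of 318 codons, and its stop lay 569 nt before the last junction.

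The inclusion level is the share of transcripts that carry the exon, computed as inclusion reads and skipping reads each divided by the effective length of its form. The 3 levels of a group are given in the order of the table, which does not tie them to replicate numbers. In DERA, the group 1 libraries were at 0.282, 0.307 and 0.315, and those of group 2 at 0.784, 0.686 and 0.687. All 3 libraries of group 1 lay far below the lowest of group 2, with a mean of 0.301 ± 0.0173 against 0.719 ± 0.0565 (SD, n = 3). At least 57 event reads stood behind each DERA level. In TEX30, the levels 0.269, 0.461 and 0.472 of group 1 stood against 0.849, 0.756 and 0.95, the largest difference of the 12, at -0.451. One group 1 library was lower than the other 2, and 31 reads were the fewest in a TEX30 library.

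**Figure D1:**
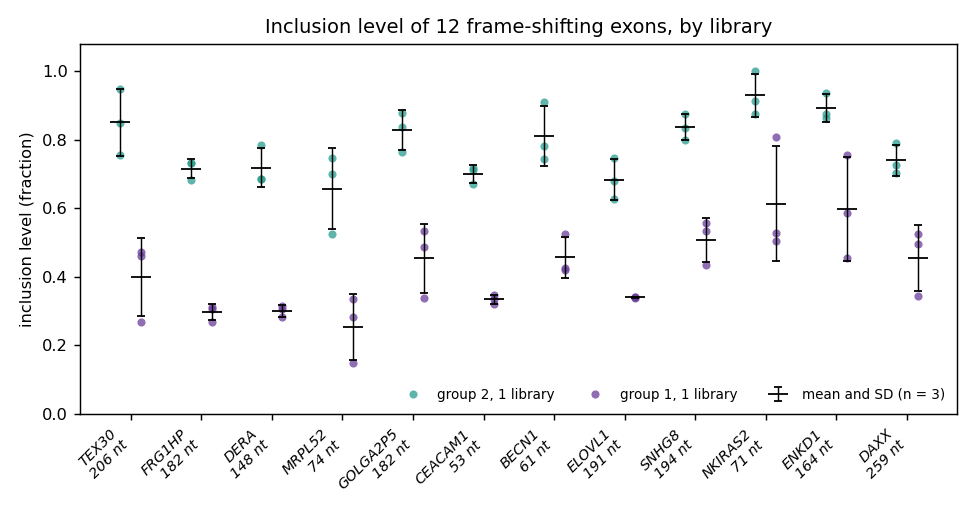
Inclusion level (fraction of transcripts, linear axis) of the 12 named exons in each of 6 libraries, with group 2 in green, group 1 in purple and black lines for the mean and SD of 3 libraries. The 12 exons were chosen because their groups do not overlap, and their mean differences run from -0.451 in TEX30 to -0.286 in DAXX.

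CEACAM1 had 0.335, 0.321 and 0.348 in group 1 against 0.671, 0.718 and 0.713 in group 2. Its spread was small in both groups, at an SD of 0.0131 and 0.0261, while the means were 0.335 in group 1 and 0.701 in group 2. In BECN1, which encodes the autophagy protein beclin 1, a 61-nt exon (exon 10 of 12, chr17:42813948-42814008) had levels of 0.525, 0.421 and 0.426 against 0.781, 0.911 and 0.743. BECN1 held 3 such exons. The others were 143 nt and 91 nt long, with mean levels of 0.648 against 0.933 and 0.737 against 0.968, and neither overlapped between the groups. With the 91-nt exon alone left out, only 19.3% of the BECN1 coding sequence precedes the join and the new stop is early. With either of the other 2 alone left out, the new stop lies in the last exon. The record of the 61-nt exon joins past the 143-nt exon, so its skipping form lacks both and its frame was not read.

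ELOVL1, a fatty acid elongase, had levels of 0.339, 0.341 and 0.342 for its 191-nt exon 3 of 8 in group 1 and 0.68, 0.627 and 0.746 in group 2. The 3 group 1 libraries were almost equal, with an SD of 0.00168, and 25 reads were the fewest in any library. Skipping this exon leaves 15 of 279 codons before the join, the shortest remnant among the 6 wholly coding exons of the 12. In DAXX, a chaperone of histone H3.3, exon 2 of 8 (259 nt) holds the start codon. Its levels were 0.344, 0.497 and 0.525 against 0.728, 0.792 and 0.704. The DAXX record joins past the 832-nt exon 3 as well, so its skipping form lacks both exons. ENKD1 (164 nt, exon 5 of 7) had 0.586, 0.756 and 0.455 against 0.938, 0.864 and 0.876, so that group 1 spread more widely than group 2, with SDs of 0.151 and 0.0396. NKIRAS2, an inhibitor of NF-κB signalling, showed the widest spread among the 12, at 0.808, 0.528 and 0.506 in group 1 against 0.914, 0.877 and 1.0.

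Of the 12 exons, 3 belong to genes without a protein. FRG1HP is a pseudogene of FRG1, and its 182-nt exon had levels of 0.269, 0.307 and 0.313 in group 1 against 0.684, 0.732 and 0.732 in group 2. On 115 reads or more in each library, this was the most deeply read exon of the 12. GOLGA2P5, a pseudogene of the Golgi protein gene GOLGA2, had 0.339, 0.534 and 0.488 against 0.765, 0.838 and 0.88. Both exons also had another record with a smaller difference. Its mean levels were 0.462 against 0.729 for FRG1HP and 0.692 against 0.87 for GOLGA2P5. SNHG8, a host gene of a small nucleolar RNA, had 0.534, 0.436 and 0.557 against 0.836, 0.8 and 0.877. Reads of a pseudogene can be shared with its parent or with further copies, and how the authors placed such reads is not given in the sources used here, so the levels of FRG1HP and GOLGA2P5 are uncertain.

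Across all 477 records the median difference was -0.206, with a range from -0.777 to -0.1, and the table lists no record with an absolute difference under 0.1. The median of the mean levels was 0.622 in group 1 and 0.887 in group 2. Most of these exons were mainly included in both groups: 314 records lay above 0.5 in both, 57 lay below 0.5 in both, and 106 (22.2%) were above 0.5 in group 2 and below 0.5 in group 1. In group 2, 216 records (45.3%) had a mean level of at least 0.9. Levels of the groups did not overlap in 274 of the 477 records (57.4%), beside 56.3% of all SE records. Because the rule used this contrast, nothing is read from that count.

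**Figure D2:**
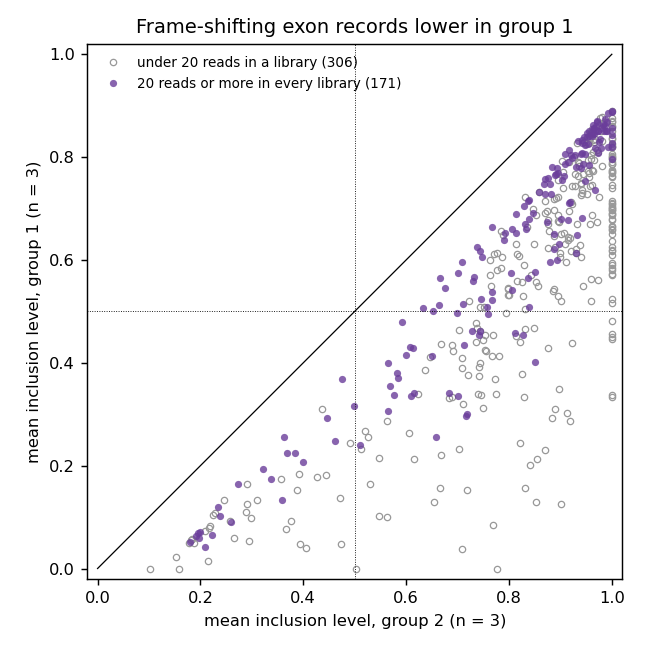
Mean inclusion level of each of the 477 records in group 1 (vertical axis) against group 2 (horizontal axis), each the mean of 3 libraries, as fractions. Filled points are the 171 records with at least 20 reads in every library, open points are the others, dotted lines mark 0.5, and the points lie below the diagonal by the rule; the filled points keep closer to it, with a median difference of -0.147.

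Many of these levels rest on few reads. The lowest number of event reads in any library had a median of 12 over the 477 records and ran from 1 to 1823. At least 20 reads in every library were found in 171 records (35.8%), against 35.1% of all SE records. Among the 171, the median difference was -0.147 and 144 (84.2%) did not overlap, beside 83.7% of all 443 SE records at this depth. The median SD within a group was 0.0964 in group 1 and 0.0626 in group 2 over all 477, and 0.0588 and 0.0383 among the 171. The 3 records with the largest differences were among the thinnest: NKAIN4 (-0.777), KANTR (-0.776) and SPAG4 (-0.724), named here after their values were seen, had 1 read in their lowest library.

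At the other end of depth stood 2 overlapping exons of LRRC75A-AS1, a non-coding host of small nucleolar RNAs, with lowest counts of 1823 and 1721 reads. They were named after their values were seen. The 176-nt exon had a mean level of 0.0625 in group 1 and 0.191 in group 2, and the 44-nt exon, which ends at the same base, had 0.0696 and 0.196. Next came SNRNP70, which encodes a core protein of the U1 small nuclear ribonucleoprotein, on at least 1391 reads. Its 157-nt exon 2 of 10, which holds the start codon, had levels of 0.827, 0.859 and 0.822 in group 1, against 0.977, 0.98 and 0.976 in group 2. The difference of -0.142 was several times the SDs of 0.02 and 0.00203.

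At the edge of the listed records, the smallest differences among the 477 were those of TMEM14B (0.877 against 0.978) and of an 85-nt exon of MRPS15 (0.863 against 0.964), both at -0.100. The nearest SE records on the opposite side of 0 were those of HNRNPD (0.843 against 0.743) and DNM2 (0.957 against 0.856), both at 0.101. Since the authors' cutoff removed smaller differences, no record lies close to the boundary of 0 itself.

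The exons were then placed in the transcript. All 464 were identical to an exon of GENCODE v44, all 464 were preceded by AG, and 458 were followed by GT, 5 by GC and 1 by TC. The median length was 122 nt (25 to 1639), with 240 records leaving a remainder of 1 and 237 a remainder of 2. The median distance to the flanking exon of the record was 2397 nt upstream and 2212 nt downstream. It resembled that of the frame-keeping exons lower in group 1, at 2248 and 2225 nt. Adjacent introns of internal coding exons of GENCODE canonical transcripts had medians of 1517 and 1412 nt. The distance in a record can span further exons, so it is not the same measure, and no difference in intron length is read from it. GC content (median 49.9%) and the share of C and T in the 18 nt before the acceptor AG (median 77.8%) also lay close to those of the frame-keeping exons, at 49.0% and 77.8%.

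Frame-shifting exons made up 52.0% of the 917 records lower in group 1 (48.8 to 55.2), 54.3% of the 346 records higher in group 1 (49.1 to 59.5) and 59.2% of 155474 internal coding exons of GENCODE. The Wilson intervals of the lower and higher records overlapped, while that of the lower records lay below the GENCODE share (59.0 to 59.5). The sets are unlike, since the records include exons of non-coding transcripts and untranslated regions, and the GENCODE set holds wholly coding exons only. Among the wholly coding exons lower in group 1, 282 shifted the frame and 318 kept it. The intervals cover counting error only.

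Of the 464 exons, 282 (60.8%) were wholly coding in the canonical transcript, 29 lay before the coding region and 28 held the start codon. A further 73 (15.7%) belonged to a non-coding canonical transcript, 26 sat in another exon structure, and 16 lay within the coding region but outside the canonical transcript. Among the 420 exons that were lower in group 1 and kept the frame, 318 (75.7%) were wholly coding, 39 (9.29%) were in non-coding transcripts and 27 (6.43%) lay before the coding region or held the start codon. The latter share was 12.3% among the frame-shifting exons (57 of 464; interval 9.6 to 15.6 against 4.46 to 9.19). The intervals did not overlap for the coding and the non-coding shares either, at 56.3 to 65.1 against 71.4 to 79.6 and at 12.7 to 19.3 against 6.87 to 12.4. Exons of the 332 with a higher level in group 1 lay between the other groups on each of the 3 shares, at 63.9%, 11.7% and 9.04%.

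**Figure D3:**
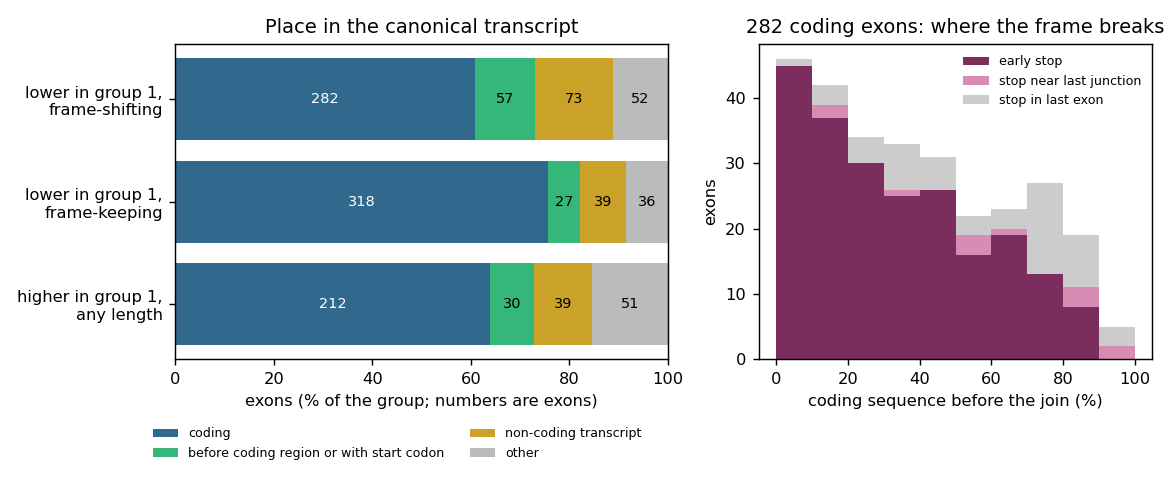
Left, place of the exons in the canonical transcript as a percentage of each group, with numbers of exons in the bars. Right, number of wholly coding frame-shifting exons (vertical axis), split by where the new stop falls. The horizontal axis is the percentage of the coding sequence before the join made by leaving out that exon alone, in bins of 10%. Early stops, 219 of 282, lie mainly with joins in the first part of the coding sequence.

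For the 282 wholly coding exons, the frame was read through the join. The new stop came more than 50 nt before the last junction, called early here, in 219 (77.7%; 72.4 to 82.1). It fell in the last exon in 51 and close to the last junction in 12. The stop followed the join at a median of 12 codons and within 30 codons in 216 exons. A median of 34.8% of the coding sequence preceded the join, and 29.2% where the stop was early. An early stop lay a median of 508 nt before the last junction (56 to 6534). These are readings of the annotation with the target exon alone left out, and the proteins and the decay of the mRNAs were not measured. Some records skip further exons together with the target, as in BECN1 and ENKD1. Their frame can differ from the one read here, and such records were not counted.

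The early-stop exons had levels like those of the other coding exons. Their median of the mean levels was 0.697 in group 1 and 0.928 in group 2, with a median difference of -0.197 over 219 exons. Where the stop fell in the last exon, the medians were 0.675 and 0.893 with a difference of -0.208 over 51 exons. Exons of non-coding transcripts were less included in both groups, with medians of 0.463 and 0.814 over 73 exons. Of the early-stop exons, 77 had at least 20 reads in every library, with a median difference of -0.141, and 62 of them did not overlap, beside the same 83.7% of all SE records.

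The 16 exons outside the canonical transcript work the other way: here inclusion, not skipping, shifts the frame. Their levels were low, with medians of 0.104 in group 1 and 0.297 in group 2. Inserted into the coding sequence, 11 of the 16 gave an early stop, and in 10 the stop lay within the exon itself. The 4 with at least 20 reads in every library, none of which overlapped between the groups, were those of ARNTL, FAM76B, MRI1 and CBWD5. Mean levels were 0.059 against 0.198 for ARNTL, a circadian clock transcription factor, 0.0417 against 0.208 for FAM76B and 0.134 against 0.359 for MRI1, an enzyme of methionine salvage. CBWD5 differed from the other three, at 0.632 against 0.897, and belongs to a family of near-identical copies, which makes its value uncertain.

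Several genes held more than 1 of the exons: 39 of 415 symbols did, led by the non-coding AC007277.3 with 5 and TMEM161B-AS1 with 4. SEPT7P2, AC009948.5, BECN1, TMCO3 and WBSCR22 had 3 each. In WBSCR22, an rRNA methyltransferase gene, the 86-nt exon had means of 0.677 and 0.914 and the 59-nt exon 0.841 and 0.961, both without overlap. Its 38-nt exon had 0.743 and 0.958 on as few as 7 reads, and its groups overlapped. Lower and higher records were not exclusive. Of the host symbols, 36 also had a record that was higher in group 1, and 5 exons appeared in both kinds of record with different flanking exons. A further 13 exons appeared in more than 1 member record and share reads between them.

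Genes of 6 functional lists were examined next, and each is described by its members among the 464 exons. Overlap is given exon by exon as a description. Of all SE records with at least 20 reads in every library, 83.7% did not overlap. None of the exons was in the list of nonsense-mediated decay factors. Of DNA repair genes, 7 held an exon, with a median difference of -0.200. MBD4, a glycosylase that removes thymine at methylated sites, had levels of 0.707, 0.582 and 0.503 against 1.0, 0.832 and 0.807 for an 866-nt exon. TDP1, which repairs topoisomerase 1 adducts, had 0.323, 0.453 and 0.287 against 0.64, 0.596 and 0.469 for a 223-nt exon before the coding region. Neither overlapped. FANCL, the ubiquitin ligase of the Fanconi anaemia pathway, did overlap, at 0.734, 1.0 and 0.816 against 1.0, 0.963 and 1.0. CHEK1, a checkpoint kinase named after its values were seen, had means of 0.806 and 0.909 on at least 394 reads, and its exon gives an early stop when skipped.

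Cell division and centrosome genes held 9 exons, but only 2 of them had at least 20 reads in every library. In MIS12, a kinetochore protein, the 394-nt exon 2 of 3 before the coding region had levels of 0.793, 0.76 and 0.752 against 0.935, 0.858 and 0.893, on 248 reads or more. In STAG2, a cohesin subunit, the 65-nt exon 2 of 35 was mostly skipped, at 0.121, 0.0952 and 0.0909 against 0.225, 0.2 and 0.289. Both lie upstream of the start codon, and in both genes the groups did not overlap. Of the remaining exons, those of AURKB, the kinase of the chromosomal passenger complex (0.467 against 0.738), and KIF20B (0.678 against 1.0) did not overlap on 12 and 16 reads in their lowest libraries. CDK5RAP2, the centrosome gene at the centre of the study, entered with a 173-nt exon at 0.667 against 1.0 that overlapped between the groups and had 1 read in its lowest library. This is not the exon that the study followed, which keeps the frame and is not among the records described here.

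RNA splicing and processing genes held 8 exons in 7 genes. In SF1, the branch point binding protein, a 205-nt exon outside the canonical structure had 0.563, 0.45 and 0.511 against 0.713, 0.731 and 0.829. SNRPA1, the A′ protein of the U2 particle, had 0.817, 0.803 and 0.803 against 0.879, 1.0 and 0.945 for a 47-nt exon, and reached an early stop 8 codons after the join. SF1, SNRPA1 and SNRNP70 did not overlap between groups, on 87, 49 and 1391 reads or more, while CELF1, at 0.844 against 0.966 on 20 reads or more, did overlap. ESRP1, an epithelial splicing regulator, had a 151-nt exon at 0.423 against 0.691 on 16 reads in its lowest library.

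Mitochondrial ribosome and respiratory chain genes held 10 exons in 8 genes, 8 of them with at least 20 reads. MRPL52, a protein of the large mitochondrial ribosomal subunit, had levels of 0.148, 0.335 and 0.283 against 0.525, 0.7 and 0.748. MRPL33, of the same subunit, had a 107-nt exon 3 of 4 at 0.243, 0.238 and 0.242 against 0.553, 0.488 and 0.489. MRPS15, of the small subunit, had a 76-nt exon 3 of 8 at 0.749, 0.483 and 0.72 against 0.854, 0.853 and 0.958, besides its 85-nt exon 5. Both MRPS15 records have the same skipping reads, at 11, 27 and 14 against 4, 6 and 1. They share 1 skipping junction over both exons and are not separate events. None of these MRPL52, MRPL33 and MRPS15 exons overlapped. MRPL22 (0.712 against 0.919 on 234 reads or more) and COX20, a cytochrome oxidase assembly factor (0.652 against 0.813 on 465 or more), did not overlap either. ATP5SL (0.165 against 0.274 on 31 reads or more) and NDUFAF7 (0.255 against 0.526, with 1 read in its lowest library) did overlap.

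Zinc finger genes held 14 exons, of which 2 reached 20 reads in every library. ZNF346 had 0.764, 0.81 and 0.917 against 1.0, 0.925 and 1.0 without overlap, and ZNF215 had 0.549, 0.823 and 0.664 against 0.784, 0.858 and 0.874 with overlap. ZNF35, whose splicing the study examined by RT-qPCR, had 0.387, 0.565 and 0.562 for its 145-nt exon 3 of 4 against 0.703, 0.791 and 1.0. The lowest library held 9 reads. The ZNF35 exon lies at chr3:44652557-44652701, and skipping it leads to a stop in the last exon 39 codons after the join, with 64 of 527 codons kept.

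The level of the host genes is a measure the rule did not use, and it was compared between shRBM39 and shCtrl in the deposited gene counts. Totals ran from 18042924 to 20428901 counts per library. RBM39 itself had 441, 448 and 435 CPM (counts relative to an adjusted library total) in shCtrl and 266, 276 and 292 in shRBM39, a log2 fold change of -0.67 (SE 0.04, adjusted p = 1.24e-16). Of 11 colon epithelial markers, 7 exceeded 1 CPM in both groups, with KRT20, CDX1, LGALS4 and CEACAM5 below it, and their sum was 12200 to 12900 CPM in shCtrl and 14100 to 14600 in shRBM39. Of 11 fibroblast, endothelial and leukocyte markers, 5 exceeded 1 CPM, with a summed level of 27.5 to 28.3 CPM in shCtrl and 30.8 to 36.3 in shRBM39. COL1A2, DCN, KDR, PTPRC and CD3E were among those below 1 CPM. The part of these differences in the results was not tested.

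Host genes moved in both directions, at shares near those of all tested genes. Among the 12058 genes at a mean of 5 CPM or more, 32.9% were lower and 36.6% higher, while the hosts were not limited to that level. Of 414 tested hosts, 137 (33.1%) were lower in shRBM39 in edgeR's quasi-likelihood test, beside 29.9% of all 18243 genes, and 132 (31.9%) were higher, beside 29.2%. The median log2 fold change was -0.02 over the hosts and -0.01 over all genes. At least 2-fold changes were found in 12 lower and 5 higher hosts, beside 4.16% and 2.36% of all genes. When counts were scaled by library totals alone, the split became 194 lower and 77 higher, while the median of all genes moved to -0.14. Gene counts add all isoforms of a gene, so a host level cannot be assigned to the form with or without the exon.

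**Figure D4:**
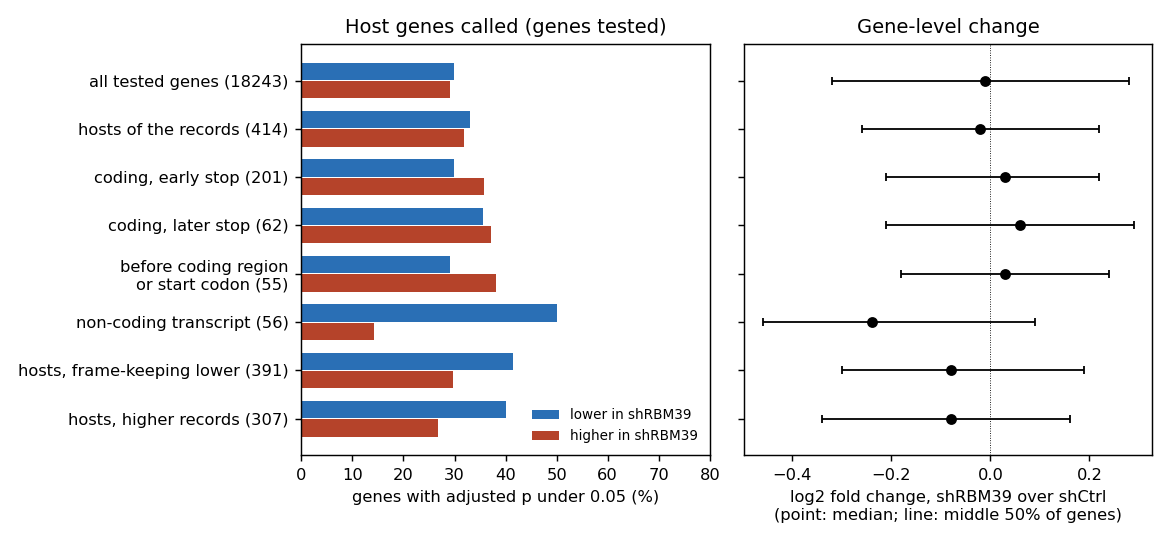
Left, percentage of tested genes called lower (blue) or higher (red) in shRBM39 by edgeR at an adjusted p under 0.05, for all genes, the hosts of the 477 records by class, and the hosts of the other SE records. Right, median log2 fold change with the middle 50% of genes; the medians stay within 0.1 of 0 except for hosts with a non-coding transcript, at -0.24.

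Hosts of exons with an early stop were not lower more often than all genes. Of 201 tested, 60 (29.9%) were lower, beside the same 29.9% of all genes and 32.9% of those at 5 CPM or more. Another 72 (35.8%) were higher, beside 29.2% of all genes and 36.6% of those at 5 CPM or more. The median log2 fold change of the 201 was 0.03. The 62 hosts whose stop fell later gave 22 lower and 23 higher. The 55 hosts of exons before the coding region or with the start codon gave 16 and 21. Hosts with a non-coding transcript stood apart from these counts: 28 of 56 were lower and 8 higher, with a median of -0.24. Over all 1376 tested genes that GENCODE lists as lncRNA or pseudogene, 413 were lower and 225 higher, with a median of -0.14. These 1376 genes were less expressed, at a median of 1.72 RPKM in shCtrl against 4.26 for the 56 hosts. The 2 sets are therefore not compared at like expression. Among hosts of frame-keeping exons lower in group 1, 162 of 391 (41.4%) were lower and 116 (29.7%) higher.

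The host genes with the largest falls among those with a mean of 5 CPM or more and non-overlapping libraries were BBC3, MEF2B, LINC00963, MLXIPL and DYX1C1-CCPG1. BBC3, the pro-apoptotic BH3-only gene also called PUMA, had 8.78, 8.95 and 8.17 CPM in shCtrl and 2.19, 2.21 and 2.37 in shRBM39. All 3 shRBM39 libraries lay far below the lowest shCtrl library, and the log2 fold change was -1.93 (SE 0.13, adjusted p = 8.5e-15). Its 289-nt exon 2 of 4, which holds the start codon, was little included, at 0.0789 against 0.216 on as few as 2 reads. MEF2B, a MADS-box transcription factor, had 18.7, 18.4 and 17.6 CPM against 4.64, 6.33 and 5.83, a change of -1.71 (SE 0.09, adjusted p = 4.25e-17). MLXIPL, the carbohydrate-responsive factor ChREBP, fell from 22.3 ± 0.779 to 9.28 ± 0.781 CPM (SD, n = 3). Its 151-nt exon 11 of 17 gives an early stop when skipped and had a mean level of 0.86 in group 1 and 1.0 in group 2. The MLXIPL levels overlapped between the groups, on 11 reads in the lowest library.

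LINC00963, a non-coding RNA, had 47.7, 47.6 and 48.7 CPM in shCtrl and 20.7, 20 and 19.1 in shRBM39, with a change of -1.27 (SE 0.05, adjusted p = 5.61e-20). The inclusion level of its 118-nt exon was 0.41 against 0.709. DYX1C1-CCPG1, a readthrough transcript, fell from 71.4 ± 0.901 to 31.5 ± 1.21 CPM, but it overlaps CCPG1 and reads of the overlap cannot be told apart, so its value is uncertain. In each of the 5 genes the lowest shCtrl library stood above the highest shRBM39 library, as the naming rule required.

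**Figure D5:**
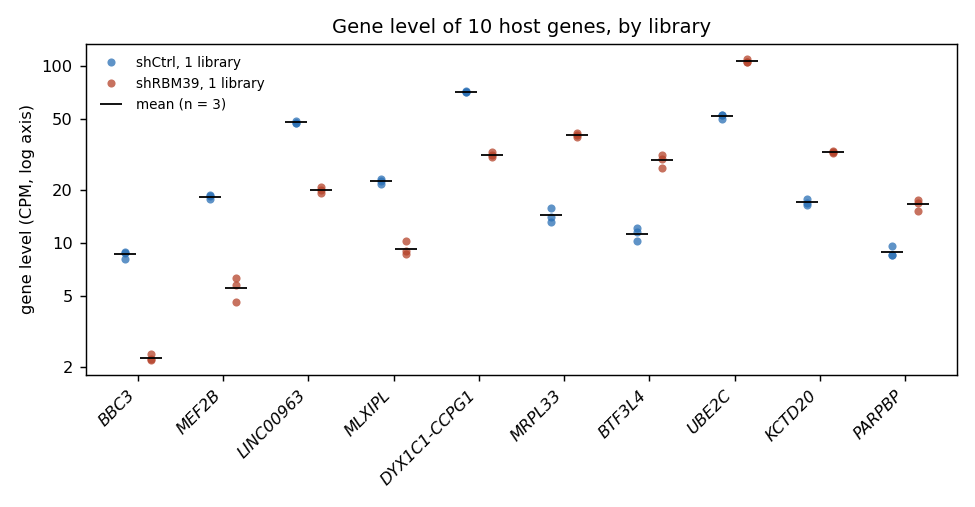
Level of 10 host genes in CPM (log axis) in each of 3 shCtrl (blue) and 3 shRBM39 (red) libraries, with black lines for the means. The first 5 genes fell and the last 5 rose, from BBC3 at -1.93 to MRPL33 at 1.51 on the log2 scale.

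The largest rises were those of MRPL33, BTF3L4, UBE2C, KCTD20 and PARPBP. MRPL33 had 14.0, 13.1 and 15.8 CPM in shCtrl and 40.7, 39.4 and 41.8 in shRBM39, a log2 fold change of 1.51 (SE 0.06, adjusted p = 3.95e-20). Its exon of 107 nt, described above, went with a mean level of 0.241 in group 1 and 0.51 in group 2. UBE2C, the ubiquitin-conjugating enzyme of the anaphase-promoting complex, rose from 51.9 ± 1.48 to 106 ± 2.0 CPM, a change of 1.03 (SE 0.04, adjusted p = 1.96e-20). The UBE2C record had 1 read in its lowest library, with levels of 0.456 against 1.0. BTF3L4, a relative of the nascent-chain protein BTF3, had 12.1, 11.5 and 10.3 CPM against 29.8, 26.6 and 31.5. KCTD20 rose by 0.94 (SE 0.06) and PARPBP, which restrains homologous recombination, by 0.89 (SE 0.08), with adjusted p of 3.64e-15 and 4.11e-11. In PARPBP, the 136-nt exon 10 of 11 was at 0.181 against 0.444, on 7 reads in its lowest library.

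Of the 12 exons named first, the host genes of 10 passed the test, which 59.1% of all genes passed in one direction or the other. DAXX rose from 130 ± 3.92 to 181 ± 9.16 CPM (0.48, SE 0.04, adjusted p = 2.67e-12), DERA from 16.5 ± 1.22 to 25.8 ± 0.178 CPM (0.65, SE 0.07, adjusted p = 2.45e-10), and MRPL52 and TEX30 rose by 0.65 and 0.73. CEACAM1 fell from 21.9, 23.6 and 23.4 CPM to 15.8, 15.6 and 15 CPM, a log2 change of -0.57 (SE 0.07, adjusted p = 5.92e-09). SNHG8, GOLGA2P5, FRG1HP, BECN1 and ENKD1 also fell, by 0.90, 0.43, 0.40, 0.21 and 0.18 on the log2 scale. ELOVL1 (0.12, adjusted p = 0.125) and NKIRAS2 (0.07, adjusted p = 0.189) did not pass.

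The functional lists were also counted at the gene level over all their tested genes, beside the 29.9% of all genes that were lower and the 29.2% that were higher in shRBM39. Of 194 mitochondrial ribosome and respiratory chain genes, 152 rose and 12 fell, with a median log2 fold change of 0.38. Of 189 RNA splicing and processing genes, 128 rose and 29 fell (median 0.24). Cell division and centrosome genes gave 114 higher and 33 lower of 187 (0.24), and DNA repair genes 70 and 23 of 130 (0.20). Zinc finger genes went the other way, with 79 higher and 154 lower of 484 (median -0.11). Of 15 nonsense-mediated decay factors, 8 rose and 5 fell (0.13). Among hosts of the exons alone, 6 of 8 mitochondrial, 5 of 7 splicing, 4 of 9 cell division, 2 of 7 DNA repair and 3 of 14 zinc finger genes rose. In the same order, 0, 1, 2, 2 and 3 fell. These host counts are small, and several lie near the shares over all genes. Medians of the decay factors came to 0.0 under library totals alone and under limma on log2(RPKM + 0.1), and the medians of the other 5 lists kept their sign under these scalings and under DESeq2 and upper-quartile scaling.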

How the data were processed

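mRNA of 3 shCtrl and 3 shRBM39 libraries of SW480 cells was sequenced, and the titles of the samples gave the groups and replicate numbers (NC columns were read as shCtrl). According to the submitters' processing notes, reads were trimmed with Trimmomatic 0.36, aligned to GRCh38 with STAR 2.5.3a and counted with featureCounts of Subread 1.5.1, and edgeR 3.12.1 was used. Raw counts per gene symbol were deposited by the authors, with totals of 18042924 to 20428901 per library. The RPKM values deposited by the authors were recomputed from the counts within a relative difference of 5.1e-15. The handling of the unique identifiers and of multi-mapped reads is not given in the sources used here.

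For splicing, the authors ran rMATS (version not given in the sources used here). The deposited event table holds inclusion and skipping read counts, inclusion levels as a fraction with 3 values per group, and the authors' own p-value, FDR and difference. Those 3 comparison columns were not used, except to test that every listed record had a p-value under 0.05. The table lists 1263 of 26540 tested SE events (4.76%), each with an absolute difference of at least 0.1. Levels were recomputed from the reads to within 0.001. Starts are given counting from 1.

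Exons were matched to GENCODE 44. A wholly coding exon of the canonical transcript was removed alone, or an exon outside it inserted, and the first stop in frame was located. The stop was called early when more than 50 nt before the last junction. For exons of the canonical transcript, the flanking exons of the record were not used. The annotated stop was found again in 897 of 897 records. The members, gene lists and tests were chosen with earlier results of these data known. Named exons were the 12 largest differences among exons with 20 reads or more in each library and non-overlapping groups, up to 3 per functional list with 20 reads, ZNF35, and the 2 records nearest the boundary on each side. Named host genes were the 5 lowest and 5 highest with an adjusted p under 0.05, at least 5 CPM and no overlap.

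Gene counts were tested with edgeR 4.0.16 in R 4.3.3 (filterByExpr, TMM, quasi-likelihood, group as the only term), with Benjamini-Hochberg adjustment over 18243 genes. The pipeline was tested on simulated counts. No pair of replicates agreed within sampling noise (chi-square per degree of freedom, 2.01 to 3.9). The inclusion contrast chose the exons and was given no test. Wilson intervals are at 95% and cover counting error only. Alternatives were DESeq2 1.42.0, limma 3.58.1 on RPKM, other scalings and filters, the replicate number as a block, replicates left out, and, for levels, other lengths, read minimums and pooling.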

Additional observations from a re-analysis of the deposited data

How the results depend on the processing

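Of the alternatives, library totals and both limma fits moved the number of higher hosts by over 1.5 times. The limma fits change the test and the unit as well as the scaling, and the cause was not tested. Against 137 lower and 132 higher hosts and a median of -0.015, library totals alone gave 77 higher and a median of -0.139, limma on log2(RPKM + 1) gave 72 higher and -0.104, and limma on log2(RPKM + 0.1) gave 72 higher and -0.138. The median of all genes moved with them, to -0.138, -0.081 and -0.128. Lower hosts numbered 113 to 194 over these settings, DESeq2, upper-quartile scaling and the filters on low counts. Leaving out each replicate in turn gave 130 to 135 lower and 121 to 127 higher hosts, with medians from -0.015 to 0.002. Each of the 10 named host genes and RBM39 kept its direction and its call under every one of these settings.

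The replicate number as a block gave 139 lower and 133 higher hosts and a median of -0.016. Correlations of the deviations of same-numbered samples were 0.00612, -0.0282 and 0.000114, so the numbers were not taken to pair the samples.

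With at least 20 event reads in every library, 171 records, 144 without overlap and 77 exons with an early stop were left, since fewer records enter. A single left-out value changed the 477 records to 474 to 479, the median difference to -0.214 to -0.200 and the records without overlap to 302 to 337. Levels without the length correction gave 478 records and a median difference of -0.159, and pooled reads gave 478 and -0.210. The alternative that takes records by the deposited FDR was not run, because that column is the authors' own comparison. Read depth limits the levels: the median record had 12 reads in its lowest library.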

Other observations

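Event reads followed the gene level. Over 156 host genes with at least 20 event reads in every library, the log2 ratio of event reads in group 1 over group 2 and the log2 fold change of the gene in shRBM39 over shCtrl had a Pearson r of 0.87 and a Spearman rho of 0.85. This is across genes, which are not independent replicates, and both values come from the same libraries. The ratio of group 1 over group 2 thus ran in the direction of shRBM39 over shCtrl. Groups were taken from labels only, and none was assigned from these values. The inclusion difference and the gene's log2 fold change had r = 0.01 and rho = 0.09 over the same 156 genes.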
